A study of Mus musculus with 29 samples.

Results

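The T cell receptor complex and its signalling genes were examined in hematopoietic stem cells (HSCs) as 10 genes taken by symbol, which are Cd3d, Cd3e, Cd3g, Cd247, Lck, Zap70, Tcf7, Cd5, Cd6 and Thy1. All 10 were among the 55376 gene symbols of the count files, and all 10 passed the filter on low counts among 33690 tested genes. RNA sequencing covered 19 libraries of mouse HSCs, namely 4 from young wild-type mice (YWT), 4 from old wild-type mice (OWT), 4 labelled as young Gadd45b knockout (YKO) and 7 labelled as old Gadd45b knockout (OKO). No group had received a treatment besides age according to the labels, which name neither ages nor a strain and give female for every library, while the study's methods include both sexes. The labels give the genotype as WT or Gadd45KO, and they do not say whether libraries of a group came from separate animals, so p-values measure the spread between libraries. HSCs were sorted in the study as lineage-negative, c-Kit-positive, Sca-1-positive, CD34-negative, Flk2-negative and CD150-positive cells, and antibodies to CD3, B220 and IL7ra were part of the lineage panel.

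The T cell receptor itself only binds antigen, and the signal is carried by the CD3 delta, epsilon and gamma chains (Cd3d, Cd3e, Cd3g) and by the zeta chain (Cd247), which hold tyrosine motifs in their tails. Lck, a Src family kinase, phosphorylates these motifs, and Zap70, a kinase related to Syk, binds the phosphorylated motifs and passes the signal on. Tcf7 encodes TCF1, a transcription factor needed from the first steps of T cell development, while Cd5 and Cd6 are related surface receptors that dampen the signal and Thy1 is a surface glycoprotein of mouse T cells. HSCs are not known to carry a T cell receptor complex, whereas natural killer (NK) cells share Lck, Zap70 and Cd247 with T cells and some B cells carry CD5.

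Upstream sequences of the CD3 chains are shown because these 4 genes form the receptor complex and because Cd247 differed from the other 3 in the libraries described next. Promoter entries from RefSeq (GRCm38.p6) matched 8 of the 10 symbols with 12 start sites, and the 250 bases before each start were searched. The windows are Cd3d at chr9:44981536-44981785 on the plus strand, Cd3e at chr9:45009612-45009861 and Cd3g at chr9:44980432-44980681 on the minus strand, and Cd247 at chr1:165788431-165788680 on the plus strand. Each is written 5′ to 3′ on the gene's strand. Capitals mark the GATA letters AGATAA, the TCF letters CTTTGA and the ETS letters CCGGAA or AGGAAG, on either strand.
Cd3d: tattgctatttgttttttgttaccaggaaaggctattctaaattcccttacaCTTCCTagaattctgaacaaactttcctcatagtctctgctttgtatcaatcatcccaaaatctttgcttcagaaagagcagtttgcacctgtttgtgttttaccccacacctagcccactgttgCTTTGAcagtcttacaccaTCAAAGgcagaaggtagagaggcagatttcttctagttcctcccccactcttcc
Cd3e: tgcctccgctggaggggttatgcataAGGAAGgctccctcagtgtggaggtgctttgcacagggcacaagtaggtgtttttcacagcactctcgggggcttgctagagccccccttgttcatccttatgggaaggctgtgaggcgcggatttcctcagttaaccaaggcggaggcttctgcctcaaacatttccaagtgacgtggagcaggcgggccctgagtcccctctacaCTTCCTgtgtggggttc
Cd3g: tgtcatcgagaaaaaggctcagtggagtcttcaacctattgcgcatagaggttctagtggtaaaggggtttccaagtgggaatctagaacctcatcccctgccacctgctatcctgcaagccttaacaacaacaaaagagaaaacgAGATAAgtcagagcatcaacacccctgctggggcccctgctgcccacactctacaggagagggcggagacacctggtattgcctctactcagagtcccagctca
Cd247: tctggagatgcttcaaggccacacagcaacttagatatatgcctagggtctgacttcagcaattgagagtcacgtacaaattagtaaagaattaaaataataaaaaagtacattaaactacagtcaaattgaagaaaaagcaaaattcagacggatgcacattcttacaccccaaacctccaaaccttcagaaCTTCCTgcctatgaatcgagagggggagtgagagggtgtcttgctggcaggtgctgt

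The Cd3d window held the TCF letters 2 times and the ETS letters 1 time. In the Cd3e window the ETS letters occurred 2 times, in that of Cd247 1 time, and the Cd3g window held only the GATA letters, 1 time. Of 32851 promoter windows of the same length, 13.8% held the TCF letters, 38.2% the ETS letters and 9.99% the GATA letters on either strand. The RUNX letters TGTGGT, present in 14.0% of all windows, were in none of these 4 windows, although 1 start of Lck and 1 of Zap70 had them. The E-box letters CANNTG, left in lower case, were in all 4 windows and in 66.2% of all windows. Matches of different motifs overlapped at 0 places in the 4 windows.

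Cd3g, Cd3d and Cd3e lie side by side on chromosome 9 (mm10, GENCODE M21 annotation). Cd3g (44969572 to 44980431, minus strand) and Cd3d (44981786 to 44987339, plus strand) start head to head with 1354 bases between them, and Cd3e (44998740 to 45009627, minus strand) follows 11400 bases further on. Cd247 is on chromosome 1 (165788681 to 165877277, plus strand), Zap70 on chromosome 1 (36761798 to 36782818), Lck on chromosome 4 (129548344 to 129573641) and Tcf7 on chromosome 11 (52252371 to 52283014). Cd5 (10717116 to 10739002) and Cd6 (10789341 to 10830058) are neighbours on chromosome 19, and Thy1 (44043384 to 44048579) is on chromosome 9. Of the 5329 exonic bases of Cd247, 3007 (56.4%) are also exonic in Pou2f1 on the opposite strand and 206 (3.87%) in Gm16565 on the same strand. Whether strand was used in counting is not given in the sources used here, so counts of Cd247 are uncertain and may hold reads of Pou2f1. For the other 9 genes at most 3.31% of exonic bases (Cd3e) were shared with another gene.

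Libraries differed in depth and in makeup. Totals ranged from 22197555 counts in YKO1 to 77970627 in OWT1, which bounds the precision of low genes. The defining HSC markers Kit and Slamf1 were at 752 to 1593 and 42.4 to 127 CPM (read counts divided by the TMM-scaled library total) in the 19 libraries, and all 12 HSC markers of a fixed list were detected in each library. Gadd45b, the targeted gene, averaged 9.53 ± 4.64 CPM (SD, n = 4) over libraries labelled YKO and 10.5 ± 4.69 CPM (SD, n = 4) in YWT, so its group means did not separate these labels. By library it was at 12.7 and 14.3 CPM in YKO1 and YKO2, within the range of YWT (7.34 to 17.5 CPM). In YKO3 and YKO4 it was at 5.98 and 5.14 CPM, below all YWT libraries and within the range of OKO (2.84 to 6.94 CPM). Its mean was 4.45 ± 1.39 CPM (SD, n = 7) in OKO against 11.5 ± 2.63 CPM (SD, n = 4) in OWT. The titles of 8 libraries (OWT1 to OWT4 and OKO4 to OKO7) carry a prefix that the other 11 lack. In wild-type HSCs this prefix and age cannot be told apart.

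The libraries YKO1 and YKO2 stood apart from the other 17. They were the 2 highest of the 19 libraries for 9 of the 10 genes, all except Cd247. Over the 33690 tested genes this held for 502, or 1.49%. The summed CPM of the 10 genes was 135 in YKO1 and 99.7 in YKO2, against 39.6 in YKO3 and 32.2 in YKO4, 22.7 to 33.1 in YWT, 28.2 to 41.2 in OWT and 17.2 to 58.5 in OKO. In bulk RNA, fewer cells of a type and less RNA per cell cannot be told apart. The results below are therefore given with these 2 libraries and without them, an alternative chosen after their values were seen. As they were picked for high values of these genes, lower YKO means without them were fixed in advance. For the same reason, the 9 of 10 beside 1.49% describes that choice and tests nothing.

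**Figure D1:**
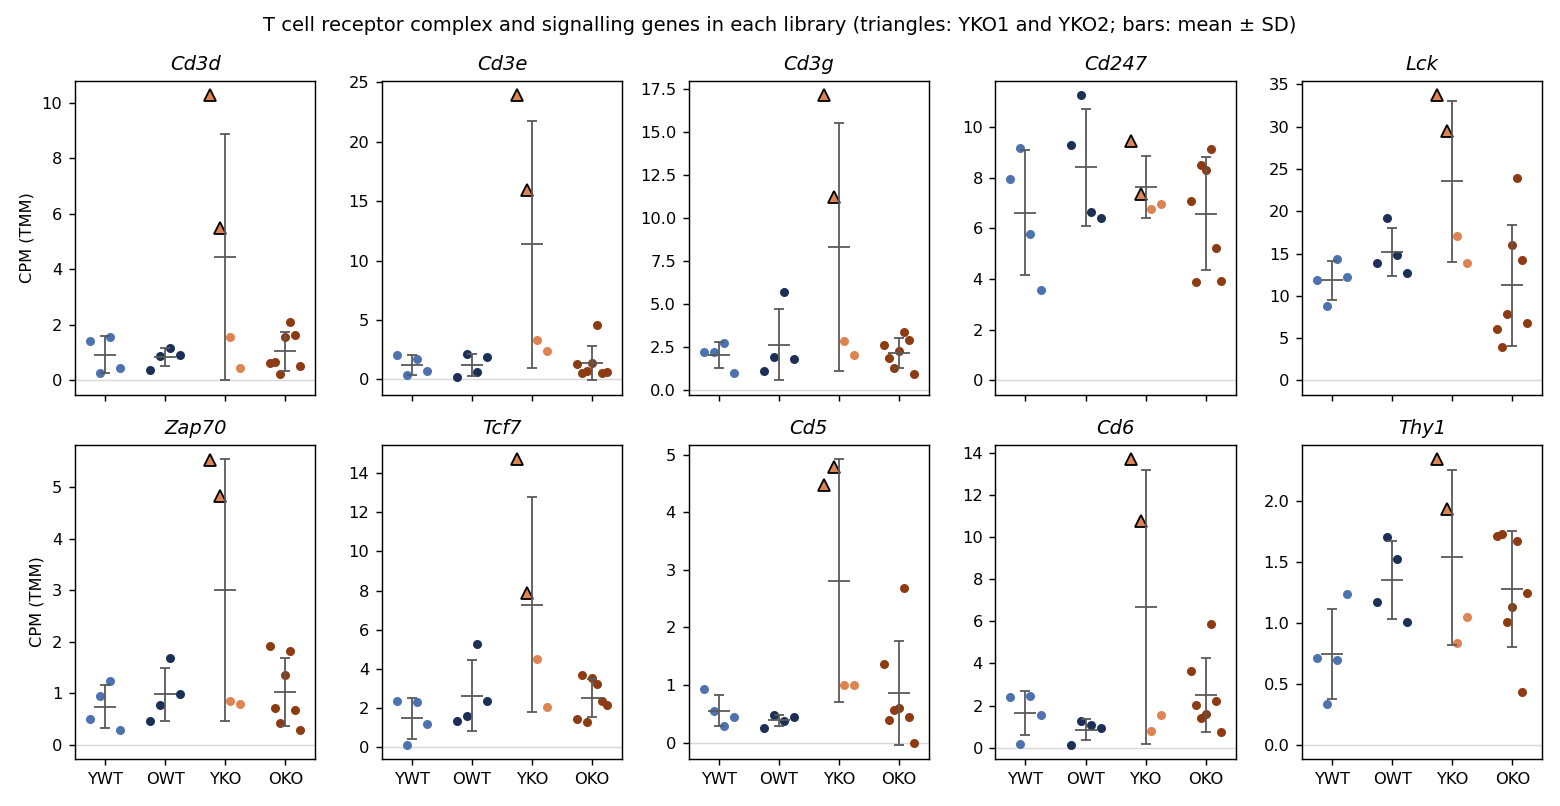
CPM (scaled by TMM) of each of the 10 genes, 1 panel per gene with its own linear axis, in the groups YWT, OWT, YKO (n = 4 each) and OKO (n = 7); each point is 1 library, triangles are YKO1 and YKO2, and bars show mean ± SD. YKO1 and YKO2 lie above the other 17 libraries in every panel except Cd247, while YKO3 and YKO4 lie among the other groups for most genes.

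Cd3e, the epsilon chain that pairs with both the delta and the gamma chain, was far higher in YKO1 and YKO2 than elsewhere. It was at 2.07, 0.338, 1.70 and 0.715 CPM in YWT1 to YWT4, at 0.170, 2.13, 0.628 and 1.89 CPM in OWT1 to OWT4 and at 23.9, 16.0, 3.32 and 2.38 CPM in YKO1 to YKO4. In OKO it was at 0.558 CPM in the lowest, 0.697 in the median and 4.61 in the highest library. All 4 YKO libraries were above all YWT and all OWT libraries, whereas OKO5, the highest of OKO, was above YKO3 and YKO4. Behind these values stand 12 (OWT1) to 848 (YKO2) reads.

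Cd3d, the delta chain, was at 1.41, 0.241, 1.54 and 0.444 CPM in YWT1 to YWT4 and at 10.3, 5.48, 1.54 and 0.446 CPM in YKO1 to YKO4. In OWT it was at 0.368, 0.852, 1.17 and 0.905 CPM and in OKO between 0.232 and 2.09 CPM (median 0.651). YKO1 and YKO2 were high, and YKO3 and YKO4 were within the range of YWT. Cd3g, the gamma chain, was at 2.21, 2.24, 2.76 and 1.02 CPM in YWT1 to YWT4 and at 17.1, 11.2, 2.90 and 2.04 CPM in YKO1 to YKO4. In OWT Cd3g was at 1.12, 1.92, 5.69 and 1.84 CPM and in OKO between 0.945 and 3.38 CPM (median 2.26). For this chain OWT3 was the highest library after YKO1 and YKO2, and the other 16 were between 0.945 and 3.38 CPM.

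Cd247, the zeta chain, showed no such pattern. It was at 7.94, 9.17, 5.77 and 3.57 CPM in YWT1 to YWT4, at 9.30, 11.2, 6.66 and 6.42 CPM in OWT1 to OWT4, at 9.42, 7.36, 6.78 and 6.98 CPM in YKO1 to YKO4, and between 3.89 and 9.11 CPM (median 7.09) in OKO. All 4 groups overlapped. Over the 19 libraries, log2(CPM + 1) of Cd247 had a Pearson r of 0.77 with Pou2f1, the gene on the other strand of its exons, and of 0.49 with Gm16565, which overlaps it on the same strand. It was 0.23 with Cd3d, 0.34 with Cd3e and 0.31 with Cd3g. Values above that of Pou2f1 were found for Gm37804 (0.90), Gng7 (0.83) and Herc3 (0.83). These correlations are descriptions, since all genes of a library share its depth and scaling.

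To compare chains on a scale per length, counts were divided by exon length and scaled to the same sum in every library. On this scale the sum of Cd3d, Cd3e and Cd3g was 9.48 times Cd247 in YKO1 and 7.51 times in YKO2. In the other 17 libraries this ratio was between 0.336 (OWT1) and 2.03 (OWT3). Pou2f1, which shares exonic bases with Cd247, was at 30.1 and 28.5 CPM in YKO1 and YKO2 and between 22.4 and 44.0 CPM over all 19 libraries.

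Lck, the kinase that acts first, was at 11.8, 8.85, 14.4 and 12.3 CPM in YWT1 to YWT4 and at 33.7, 29.5, 17.03 and 13.9 CPM in YKO1 to YKO4. In OWT it was at 13.9, 19.2, 14.8 and 12.7 CPM. In OKO it ran from 3.92 to 24.0 CPM with a median of 7.86, and the 3 OKO libraries without a title prefix (6.04, 3.92 and 7.86 CPM) were, with OKO7 (6.73 CPM), the lowest of all 19. This order depended on the scaling, as the TMM factors of OKO1 to OKO3 were 1.83, 1.24 and 1.41. On the scale per length, Lck was at 9.56 in OKO1 and 9.78 in OKO3, above YWT2 (2.78) and OWT4 (6.75). OKO2 (4.57) and OKO7 (2.53) stayed low on that scale. Zap70, which docks on the phosphorylated chains, was at 0.499, 0.941, 1.23 and 0.290 CPM in YWT1 to YWT4 and at 5.54, 4.84, 0.855 and 0.788 CPM in YKO1 to YKO4. It was at 0.467, 0.776, 1.67 and 0.989 CPM in OWT and between 0.281 and 1.91 CPM (median 0.707) in OKO. YKO1 and YKO2 were above all others for both kinases, by a smaller margin for Lck, where OKO5 reached 24.0 CPM.

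Tcf7 was at 2.35, 0.145, 2.30 and 1.18 CPM in YWT1 to YWT4 and at 14.7, 7.87, 4.52 and 2.06 CPM in YKO1 to YKO4. In OWT it was at 1.34, 1.60, 5.30 and 2.36 CPM, and in OKO between 1.32 and 3.70 CPM (median 2.35). The lowest library was YWT2, with 6 reads, and OWT3 was higher than YKO3.

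Of the surface glycoproteins, Cd5 had the lowest mean CPM in YWT, OWT and OKO but not in YKO, where Thy1 was lower. Cd5 was at 0.926, 0.555, 0.284 and 0.444 CPM in YWT1 to YWT4, at 0.255, 0.472, 0.377 and 0.452 CPM in OWT1 to OWT4 and at 4.47, 4.80, 1.00 and 0.994 CPM in YKO1 to YKO4. In OKO its median was 0.558 and its highest value 2.68 CPM, and OKO7 had 0 reads, which allows up to 3 counts or 0.0603 CPM. All 4 YKO libraries were above all YWT and all OWT libraries for Cd5.

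Cd6 was at 2.39, 0.193, 2.44 and 1.55 CPM in YWT1 to YWT4, at 0.141, 1.26, 1.07 and 0.938 CPM in OWT1 to OWT4 and at 13.7, 10.7, 0.792 and 1.54 CPM in YKO1 to YKO4. In OKO it was between 0.724 and 5.89 CPM with a median of 2.01, so YKO3 and YKO4 were below the OKO median. Thy1 had the narrowest range of these 3, at 0.712, 0.338, 0.694 and 1.24 CPM in YWT1 to YWT4 and at 2.34, 1.94, 0.834 and 1.05 CPM in YKO1 to YKO4. It was at 1.17, 1.70, 1.53 and 1.01 CPM in OWT and between 0.429 and 1.73 CPM (median 1.25) in OKO, and all groups overlapped.

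Gadd45b of the libraries labelled YKO overlapped that of YWT through YKO1 and YKO2, but not in YKO3 and YKO4. Between YKO and YWT (YKO vs YWT), all 10 genes were higher in the mean of YKO, and 0 of the 10 passed an adjusted p of 0.05 with a fold change of 1.5. Of all tested genes, 9 passed in this comparison, or 0.0267%. The median log2 fold change of the 10 genes was 2.01, beside -0.02 over all tested genes. The highest was that of Cd3e at 3.23 (standard error 0.87, edgeR quasi-likelihood adjusted p = 0.409, Benjamini-Hochberg over all tested genes). Cd5 had 2.34 (standard error 0.88, edgeR adjusted p = 0.848), Tcf7 2.27 (0.65, 0.512), Cd3d 2.26 (0.79, 0.774) and Cd3g 2.01 (0.60, 0.569). Zap70 and Cd6 were also at 2.01, Thy1 at 1.03, Lck at 0.99 and Cd247 at 0.21, each with an edgeR adjusted p of 0.774 or more. At an unadjusted p under 0.05 there were 9 of the 10, all except Cd247, and 4.59% of all tested genes (1.91% higher, as these 9 were). DESeq2 called 3 genes, Tcf7 (adjusted p = 0.0281), Cd3e (0.0387) and Cd3g (0.0494), and 136 genes in all. YKO and YWT did not overlap for 2 genes, Cd3e and Cd5, where YKO was higher, as for 2.12% of all tested genes.

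Without YKO1 and YKO2, the comparison with YWT rested on YKO3 and YKO4. The median log2 fold change of the 10 genes was then 0.28, beside -0.23 over all tested genes, and 0 of the 10 had an unadjusted p under 0.05, beside 5.06% of all tested genes. Cd3e was at 1.22 (edgeR adjusted p = 0.903), Tcf7 at 1.12, Cd5 at 0.83 and Cd3d at 0.11. Cd6 changed sign to -0.51. The summed 7 T cell receptor constant genes moved with the same libraries, at 54.9 CPM in YKO1, 30.6 in YKO2, 9.38 in YKO3 and 7.58 in YKO4, against 2.48 to 8.29 CPM in YWT. In OKO7, OKO4 and OKO5 the constant genes were at 14.1, 13.3 and 12.7 CPM, above YKO3 and YKO4, although OKO7 had a low sum of the CD3 chains (6.01 CPM). This sum mixes alpha and beta with gamma and delta chain constant genes. In OKO7 the alpha and beta genes Trac, Trbc1 and Trbc2 were at 0.824, 0.683 and 0.442 CPM, each below YKO3 and YKO4. Most of the sum in OKO7 thus came from the gamma and delta genes. In OKO4 Trac (1.27 CPM) and Trbc2 (1.72 CPM) were also below YKO3 and YKO4, but Trbc1 (2.18 CPM) was not.

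Between the old and the young libraries labelled as knockout (OKO vs YKO), Cd3e fell by 3.04 on the log2 scale (standard error 0.70, edgeR adjusted p = 0.0322), and the other 9 genes did not pass. Gadd45b itself was at -1.10 in this comparison (edgeR adjusted p = 0.0793), so the arms are not shown to be alike in the targeted gene. For Gadd45b, YKO1 and YKO2 were above all OKO libraries, while YKO3 and YKO4 were within the range of OKO. Cd3e is 1 of the 10 genes, beside 434 of all tested genes or 1.29% (0.692% lower). The mean of Cd3e was 1.38 ± 1.46 CPM (SD, n = 7) in OKO and 11.4 ± 10.4 CPM (SD, n = 4) in YKO, so the SD of YKO was close to its mean. The next in size were Cd3d at -2.07 (standard error 0.66, edgeR adjusted p = 0.119), Cd3g at -1.92 (0.50, 0.0600), Cd5 at -1.69 (0.72, 0.249), Zap70 at -1.54 (0.59, 0.195) and Tcf7 at -1.51 (0.54, 0.164). Cd6 was at -1.41, Lck at -1.06 (standard error 0.36, edgeR adjusted p = 0.147), Thy1 at -0.26 and Cd247 at -0.21. All 10 values were negative, with a median of -1.53 beside 0.23 over all tested genes, and 7 of the 10 had an unadjusted p under 0.05, as 15.8% of all tested genes did (7.93% lower, as these 7 were). The groups overlapped for all 10 genes, while 2.60% of all tested genes showed no overlap.

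The Cd3e call depended on single libraries of both groups. YKO1 and YKO2 were singled out for their high values, so a smaller difference without them was fixed in advance. Without YKO1 its log2 fold change was -2.35 (edgeR adjusted p = 0.213), without YKO2 -2.76 (0.0767) and without both -1.02 (0.476). It was also not called without OKO2, OKO3, OKO4 or OKO6, with adjusted p between 0.0545 and 0.0737, while its log2 fold change stayed between -2.90 and -3.03. Without both YKO libraries the median of the 10 genes was -0.10, beside 0.59 over all tested genes. Of the 10, 0 had an unadjusted p under 0.05, beside 15.6% of all tested genes, and Cd3d (0.09), Zap70 (0.34), Cd6 (1.12) and Thy1 (0.46) changed sign. The count of all genes called in OKO vs YKO was then 21 (0.0542%), against 434 with all 19 libraries. With OKO limited to the 3 libraries that share the absence of a title prefix with YKO, 4 of the 10 were called, Cd3e at -3.68 (edgeR adjusted p = 0.0132), Cd3d at -3.06 (0.0254), Cd3g at -2.02 (0.0456) and Lck at -1.91 (0.00250). In that fit 6285 genes were called in all, against 434 with all 19 libraries, so calls rose over all genes and not only among the 10.

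**Figure D2:**
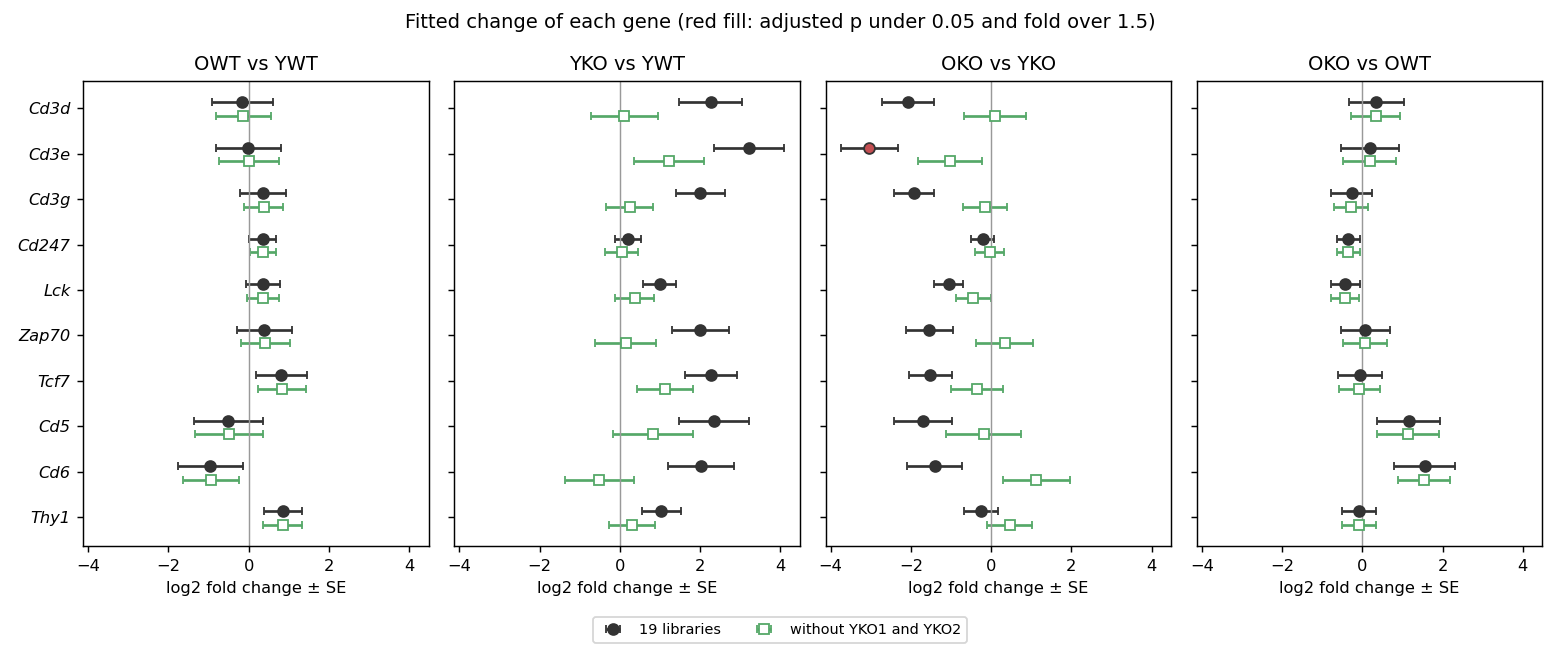
Fitted log2 fold change ± SE (linear axis) of each of the 10 genes for the 2 age and the 2 genotype comparisons, with filled circles for all 19 libraries and open squares for the fit without YKO1 and YKO2; the red fill marks the 1 called gene. In YKO vs YWT the median falls from 2.01 to 0.28 without these 2 libraries, and in OKO vs YKO it moves from -1.53 to -0.10, while Cd6 in OKO vs OWT is at 1.55 in both fits. Over all tested genes these medians are -0.02 and -0.23 in YKO vs YWT and 0.23 and 0.59 in OKO vs YKO.

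With age in wild-type HSCs (OWT vs YWT), 0 of the 10 genes were called by edgeR, by DESeq2 0, and 0 had an unadjusted p under 0.05 (4.38% of all tested genes), beside 1 called gene or 0.00297% of all tested genes. Log2 fold changes ran from -0.95 (Cd6, standard error 0.81) to 0.86 (Thy1, standard error 0.48), with 6 above 0 and 4 below, and each was within 2 standard errors of 0. With the title prefix as covariate, Lck turned from 0.36 to -1.001, Cd3d moved from -0.15 to -1.69, Cd3e from -0.01 to -1.10 and Thy1 to 1.26, with 0 of the 10 called. Only OKO has libraries with and without the prefix, so that fit takes the prefix effect from OKO and carries it over to wild type. These shifted values are therefore no estimate of wild-type aging freed of the prefix, which the design cannot give. In old HSCs (OKO vs OWT), 0 of the 10 were called by edgeR and 0 by DESeq2, beside 0.0327% of all tested genes by edgeR, and 0 had an unadjusted p under 0.05 (8.14% of all tested genes). Cd6 had the largest value, 1.55 (standard error 0.76, edgeR adjusted p = 0.592), and Lck the lowest, -0.43 (standard error 0.37, edgeR adjusted p = 0.660). The Cd6 means were 2.50 ± 1.74 CPM (SD, n = 7) in OKO and 0.852 ± 0.492 CPM (SD, n = 4) in OWT, and the groups overlapped. Without YKO1 and YKO2, 1 of the 10 had an unadjusted p under 0.05 beside 9.3% of all tested genes, which was Cd6 (edgeR adjusted p = 0.534).

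The difference between the age effects of the genotypes, tested as an interaction, passed for 0 of the 10 genes and for 0 genes in all, with DESeq2 0 of the 10 as well. At an unadjusted p under 0.05 there were 5 of the 10, Cd3e, Cd3g, Lck, Zap70 and Tcf7, beside 4.62% of all tested genes (1.22% negative, as these 5 were). Cd3g had the smallest p (0.00773, edgeR adjusted p = 0.811), with an interaction of -2.28 on the log2 scale (standard error 0.78). Without YKO1 and YKO2 the number of the 10 at an unadjusted p under 0.05 was 0. OKO vs YKO and YKO vs YWT share the YKO libraries, and so do these comparisons and the interaction, so their values for a gene are not independent of each other.

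Levels per exon length put Lck first. Its median was 11.1 in YWT, 9.31 in OWT, 15.4 in YKO and 9.56 in OKO, on this scale, and it was the highest of the 10 genes in 18 of the 19 libraries. In OKO2 Tcf7 was higher, at 4.81 against 4.57. In YWT, OWT and OKO, Cd247 came next by its mean and then Tcf7, with means of 2.49 ± 0.901 and 1.45 ± 1.03 in YWT (SD, n = 4), a difference within their spread. In YKO, Tcf7 (5.30 ± 3.53), Cd3e (5.13 ± 4.35), Cd3g (4.72 ± 3.72) and Cd3d (4.49 ± 4.30; SD, n = 4) were ahead of Cd247 (2.93 ± 0.431), again within their spread. Cd5 came last in YWT, OWT and OKO, with means between 0.159 and 0.494.

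**Figure D3:**
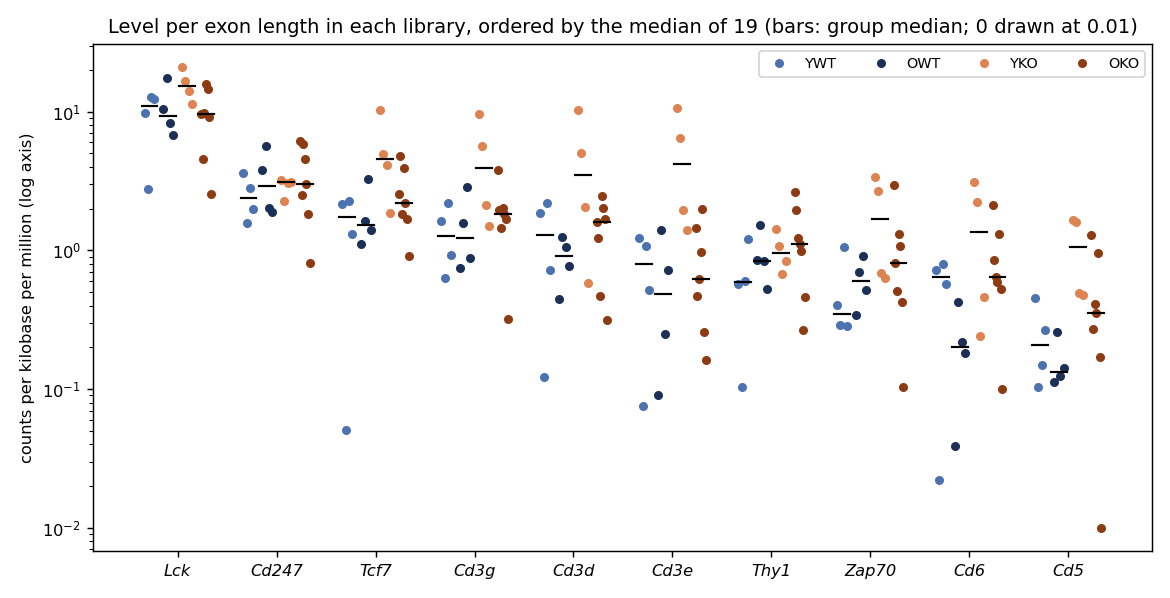
Level of each of the 10 genes per exon length (counts per kilobase, scaled to the same sum in every library, log axis) in each of the 19 libraries, with genes ordered from left to right by their median and short bars at the group medians; a value of 0 (Cd5 in OKO7) is drawn at 0.01. Lck lies highest, with group medians from 9.31 to 15.4, and the values of neighbouring genes overlap.

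Other genes of the T cell receptor pathway were followed in fixed lists of 79 genes, of which 76 were in the files and tested. In OKO vs YKO 10 of the 76 fell and 0 rose, beside 1.29% of all tested genes called, and 0 in each of the other 3 comparisons, where edgeR gave 8 (OWT vs YWT), 16 (YKO vs YWT) and 5 (OKO vs OWT) at an unadjusted p under 0.05, beside 4.38%, 4.59% and 8.14% of all tested genes. Among the 7 constant genes of the receptor chains, which encode the part of the antigen-binding chains that anchors them, 1 fell. This was Trac, the alpha chain constant gene, at -2.84 (standard error 0.61, edgeR adjusted p = 0.0219), from 10.6 to 1.48 CPM. Of the 12 coreceptors and costimulators 4 fell. Among them, Ccr7, a homing receptor of lymphocytes, had -4.94 (edgeR adjusted p = 0.000604), Cd2, an adhesion receptor, -3.30 (0.0308), and Cd4, the coreceptor of helper T cells, -2.11 (0.0190). Of the 18 adaptors and kinases 3 fell, among them Rasgrp1, which activates Ras, at -2.03 (edgeR adjusted p = 0.0284). Of the 17 T lineage transcription factors 2 fell, among them Tbx21 (T-bet) at -2.97 (edgeR adjusted p = 0.0449). None of the 22 signalling genes shared with other blood cells was called. B cells also use Ccr7, so it is not specific to T cells, and the cell source of the other named genes was not tested. Ccr7 (30.1 and 49.3 CPM), Cd2 (30.0 and 33.9), Rasgrp1 (23.7 and 26.0) and Tbx21 (9.26 and 16.5) were lower in YKO1 than in YKO2. Trac (24.0 and 11.6 CPM) and Cd4 (19.6 and 12.7) were higher in YKO1. For Ccr7, YKO3 and YKO4 (14.8 and 7.75 CPM) were also above all OKO libraries (at most 1.97 CPM, in OKO2). No overlap of OKO and YKO was seen for 2.60% of all tested genes. In wild type, Ccr7 was at 0.183 to 3.81 CPM in OWT, below all YWT libraries (4.40 to 12.5 CPM), but it was not called there.

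The median log2 fold change of the 76 genes was 0.29 in YKO vs YWT and -0.39 in OKO vs YKO, beside -0.02 and 0.23 over all tested genes. YKO1 and YKO2 were the 2 highest libraries for 23 of the 76 genes (30.3%). Trac was at 24.0 and 11.6 CPM in YKO1 and YKO2 and at most 4.59 CPM (YKO3) elsewhere, and Cd8a, the coreceptor of cytotoxic T cells, at 8.20 and 3.48 CPM and at most 2.23 CPM elsewhere. The list of coreceptors and costimulators was highest in YKO2 (314 CPM) and lowest in OKO1 (92.9 CPM), and that of adaptors and kinases highest in YKO1 (511 CPM) and lowest in OKO1 (249 CPM). Without YKO1 and YKO2, 0 of the 76 were called in OKO vs YKO, beside 0.0542% of all tested genes (21 genes). Their median was then 0.05, beside 0.59 over all tested genes. Leaving out YKO1 alone left 2 calls and YKO2 alone 1 call.

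Markers of other blood cells differed between the same libraries. The 12 B cell markers summed to 979 CPM in YKO1 and 1740 in YKO2, against 278 and 218 in YKO3 and YKO4, 249 to 834 in YWT, 75.1 to 299.6 in OWT and 33.4 to 306 in OKO. All 12 were detected in every library, and 7 of them fell in OKO vs YKO, beside 0.692% of all tested genes. The 8 plasma cell markers summed to 10162 and 15300 CPM in YKO1 and YKO2 and to 30210 CPM in YWT2, the library with the lowest Tcf7 and the lowest Cd6 of YWT. The 11 NK cell markers summed to 139 and 113 CPM in YKO1 and YKO2, which was above YWT (43.5 to 62.3) and within the range of OWT (79.1 to 184) and OKO (36.2 to 241). Of these markers, Klrb1c alone was at 167 CPM in OKO4 and 111 CPM in OWT1, but at 5.59 and 10.2 CPM in YKO1 and YKO2. The high sum of OKO4 thus came mostly from 1 gene. The 10 erythroid markers summed to 4224 CPM in YKO1 and 1693 in YKO2, and to 4833 and 4882 CPM in YKO3 and YKO4, so they did not follow the CD3 chains. HSC markers were at 2460 and 2385 CPM in YKO1 and YKO2 and between 2473 and 5036 CPM in the other libraries. The part of other cell types in the differences of the 10 genes was not tested.

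**Figure D4:**
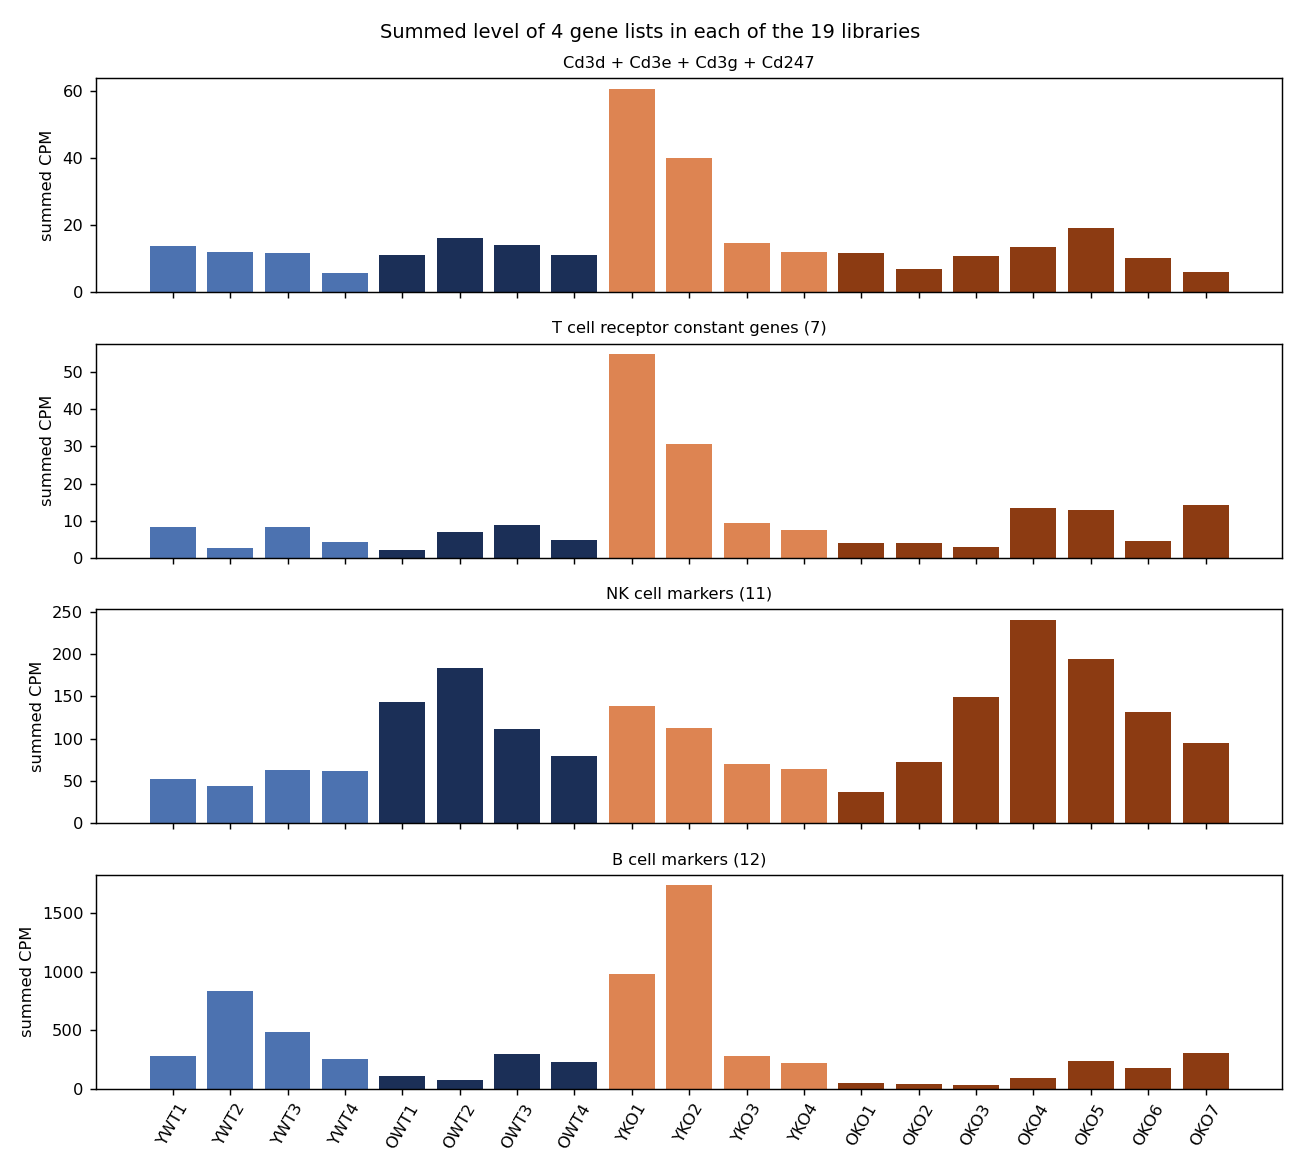
Summed CPM (scaled by TMM, linear axes from 0) of the 4 CD3 chains, the 7 T cell receptor constant genes, the 11 NK cell markers and the 12 B cell markers, 1 bar per library. CD3 chains, constant genes and B cell markers are highest in YKO1 and YKO2 (CD3 chains 60.7 and 40.0, B cell markers 979 and 1740), while the NK cell markers are highest in OKO4 at 241. Of that sum, 167 CPM are from Klrb1c alone.

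By log2(CPM + 1) over the 19 libraries, the genes with patterns most like the 3 clustered chains were other T cell genes. Cd3e was most like Trac (Pearson r = 0.97), Cd3d most like Cd8a (0.90) and Cd3g most like Trbc1, a beta chain constant gene (0.92), among 17286 candidates that averaged 1 CPM or more. Cd5 was most like Cd8a (0.84), Cd6 most like Icos, a costimulator (0.84), and Zap70 most like Tnfrsf9 (0.90). Tcf7 was most like Ms4a4b (0.90), Lck most like Rras2 (0.88), Cd247 most like Gm37804 (0.90) and Thy1 most like Nlrc3 (0.75). The 19 points of each value share their library's depth and scaling, and YKO1 and YKO2 weigh on them. Between members, r of Cd3d and Cd3e was 0.90 over 19 libraries and 0.60 over 17 without these 2, that of Cd3e and Cd3g 0.83 and 0.34, and that of Cd3g and Zap70 0.94 and 0.79.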

How the data were processed

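RNA was sequenced from 19 libraries of sorted HSCs with the SMART-Seq v4 kit, and 10 methylation samples of the series were not analysed here. The study's methods report more OWT and YKO samples for RNA sequencing than are among these 19. The authors deposited raw counts of reads per gene symbol, made with Trim Galore 0.4.3, STAR (mm10, GENCODE M22) and featureCounts, without normalization. The use of strand and of read mates in counting is not given in the sources used here. Counts were filtered with filterByExpr and scaled by TMM, and all 19 libraries entered 1 fit of the edgeR quasi-likelihood test (edgeR 4.0.16, limma 3.58.1, R 4.3.3) with 1 mean per group. A gene was called at an adjusted p (Benjamini-Hochberg, over all 33690 tested genes) under 0.05 with a fold change over 1.5. The interaction used the adjusted p alone. DESeq2 1.42.0, the tool of the study's methods, was an alternative, beside other filters and scalings, the title prefix as covariate, a replicate block and leaving out each library. Leaving out YKO1 and YKO2 together, or with OKO1, was added after the data were seen. The 10 genes and all lists were chosen with earlier results of these data known. Apart from the 10 genes, the rule named the 8 called pathway genes with the largest fold change, some of which are not reported here, and the genes most like each of the 10, of which the first is given. Cd8a levels and Pou2f1 were added after their values were seen. Procedures were tested on simulated data, with large changes planted evenly over the OKO libraries in genes of higher level. That test does not cover low genes or differences carried by single libraries, as most of the 10 are. A count of 0 was taken to allow 3 counts, which covers counting error only.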

Additional observations from a re-analysis of the deposited data

Results flagged for a closer look

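Cd3e in OKO5 was at 4.61 CPM, while the next of the 7 OKO libraries was at 1.36 CPM, and this gap took up 0.802 of the range of the group. OKO5 was the 1 library that stood out among 40 groups of values screened (10 genes in 4 groups), where chance gives about 2. Without OKO5, Cd3e in OKO vs YKO was at -3.75 on the log2 scale (edgeR adjusted p = 0.00670), against -3.04 with it.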

How the results depend on the processing

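Calls among the 10 genes depended on the processing in OKO vs YKO, where the count of 1 became 5 with DESeq2, 2 with a mean CPM of at least 1, 4 with the title prefix as covariate, 4 with OKO of 1 title prefix, and 0 in a fit of the compared groups alone. Leaving out 1 library gave 0 to 2, with 0 without YKO1, YKO2, OKO2, OKO3, OKO4 or OKO6 and 2 without OWT3, YKO4, OKO5 or OKO7. It was 0 without YKO1 and YKO2 and 0 without these and OKO1, and the cause of the other shifts was not tested. In YKO vs YWT the count of 0 became 3 with DESeq2. For the 76 other pathway genes the count of 10 in OKO vs YKO became 20 with DESeq2, 18 with a mean CPM of at least 1, 28 with the prefix as covariate, 28 with OKO of 1 prefix and 3 with the compared groups alone. Leaving out 1 library gave 1 to 17 (1 without YKO2, 2 without YKO1, 4 without OKO3 or OKO4, 17 without OKO7), and both settings without YKO1 and YKO2 gave 0. In OWT vs YWT 1 pathway gene was called with the prefix as covariate, and in YKO vs YWT 1 with the compared groups alone. The prefix effect of the covariate fit comes from OKO alone, which limits its values in OWT vs YWT. All genes called in OKO vs YKO numbered 434, and 2122 with DESeq2, 1078 with upper-quartile scaling, 6420 with the prefix as covariate, 115 with the compared groups alone and 21 without YKO1 and YKO2. The higher counts of the 10 and the 76 with DESeq2 and with the prefix as covariate thus came with more calls over all genes.

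Several log2 fold changes reversed. In OWT vs YWT Lck was -1.001 with the prefix as covariate, against 0.36, and Cd3g -0.32 without OWT3 (leave-one-out up to 0.63). Cd3d, at -0.15, ran from -0.44 to 0.25 on leaving out 1 library, and Cd3e, at -0.01, from -0.36 to 0.39, with 0.0130 without a filter, 0.0139 with the compared groups alone and 0.0166 without YKO1 and YKO2. Cd247 in YKO vs YWT was -0.0011 without YWT4, in a leave-one-out range up to 0.38. Thy1 in OKO vs YKO was 0.0224 with OKO of 1 prefix, 0.0386 without YKO1 (leave-one-out from -0.39) and 0.46 without YKO1 and YKO2. Lck in OKO vs OWT was 0.00734 with the prefix as covariate and 0.0359 with OKO of 1 prefix. Without YKO1 and YKO2, Cd6 was -0.51 in YKO vs YWT, and in OKO vs YKO Cd3d was 0.0895, Zap70 0.34 and Cd6 1.12.

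Replicate numbers did not pair the libraries, since correlations of same-numbered deviations ran from -0.45 to 0.28 over 4 pairs in each comparison. With the replicate block, 2 of the 10 genes were called in OKO vs YKO, Cd3e (-3.34, edgeR adjusted p = 0.0376) and Lck (-1.53, 0.0409), with 1774 genes in all, and 12 pathway genes. Replicate numbers 5 to 7 exist only in OKO, so OKO5 to OKO7 added nothing to the group differences of that fit. In OWT vs YWT the block gave 0.00105 for Cd3d and 0.0354 for Cd3e.

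Depth limits the low genes: Cd5 had 18 to 255 reads in 18 libraries and 0 in OKO7, and differences at that level were not well resolved. YKO1, with the lowest total, gives a floor of 0.160 CPM.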

Other observations

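Within groups, 1 library often held the extreme of several of the 10 genes, a count made after the values were seen. OKO5 was the highest of OKO for 7 of the 10 genes, among them Cd3d, Cd3e, Cd3g and Lck, and for 16.1% of all tested genes. OWT1 was the lowest of OWT for 7 of the 10 and for 27.7% of all tested genes, and YWT2 was the lowest of YWT for 6 of the 10 and for 25.8% of all tested genes. In YWT2 the reads of Tcf7 and Cd6 numbered 6 and 8, at a total of 59928475 counts.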
